A study of Mus musculus with 9 samples.

Results

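March6, Rab34, Galns, Gngt2, Selplg, AW112010, Lancl3, Styk1, Alpl and Enpp4 are 10 genes whose levels moved apart in mouse uterine epithelium when isoform A or isoform B of the progesterone receptor was overexpressed. They were taken by name from a table of 15158 genes, and all 10 were among the 12347 genes that reached 1 FPKM, a level per gene length and library size, in at least 3 libraries and could be tested. The names had been picked from the same libraries and the same contrasts that are described here. Their differences are therefore given as a description, with standard errors and without a test, and they support nothing by themselves.

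Luminal epithelium, the cell layer that lines the uterus and that an embryo first touches, was cut out by laser capture on pregnancy day 4 from females housed until they were 8 weeks old. Each of 3 genotypes gave 3 libraries. The controls, Wnt7acre mice, carried the cre recombinase, which all 3 genotypes shared and which in this line acts in uterine epithelium, glands included. The ePRAoe mice (Wnt7acre/+PgrALsL/+) had in addition the PgrALsL allele, which cre opens to express isoform A of the receptor. The ePRBoe mice (Wnt7acre/+PgrBLsL/+) had the PgrBLsL allele for isoform B. Bioreplicates carry numbers in the labels, with no animal named.

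The progesterone receptor is a hormone-activated transcription factor, and its isoforms come from the gene Pgr, with a longer N-terminal end in isoform B. In the uterus, progesterone prepares the epithelium for attachment and the stroma beneath it for decidualization. The 10 genes belong to unrelated families. Selplg, Gngt2 and AW112010 are best known from white blood cells, Galns works in the lysosome, Rab34 in membrane traffic and March6 in protein disposal. Styk1 is a kinase-like membrane protein, Alpl and Enpp4 are enzymes of the cell surface that split phosphate compounds, and Lancl3 is a little studied relative of the LanC-like proteins.

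The libraries summed to between 272213 and 314010 FPKM, and 11074 to 12300 genes reached 1 FPKM in them. Pgr, the overexpressed gene, stood at 17.4, 3.82 and 6.62 FPKM in Wnt7acre, at 41.7, 49.5 and 42.8 FPKM in ePRAoe and at 38.1, 38.3 and 45.9 FPKM in ePRBoe, so both overexpressing groups lay above every control. These are values per gene and do not tell the isoforms apart. The summed level of 18 luminal epithelium markers was 2345 to 2614 FPKM in Wnt7acre, 1889 to 2622 FPKM in ePRAoe and 2264 to 2500 FPKM in ePRBoe. The libraries came from 3 sequencing runs named in the labels. Each run held 1 Wnt7acre and 1 ePRAoe library, while all 3 ePRBoe libraries were in run 1, so the comparisons with ePRBoe rest within a run on Wnt7acre replicate 3 and ePRAoe replicate 2.

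The design sets each isoform against the same controls. In a limma fit on log2(FPKM + 1) with terms for genotype and run (adjusted p under 0.05, Benjamini-Hochberg), 889 genes were called higher and 1109 lower in ePRAoe than in Wnt7acre, 16.2% of those tested. Between ePRBoe and Wnt7acre 792 were called higher and 306 lower, 8.89% of those tested. When libraries were scaled by median-of-ratios factors that split was 618 and 477, and the median difference of all genes went from 0.10 to -0.03. Of the 664 genes called in both comparisons, 8 (0.0648% of those tested) had opposite signs, and 6 of the 10 genes are among these 8: March6, Rab34, Galns, Gngt2, Selplg and AW112010. The other two, Tyrobp and Fcer1g, are signalling adaptors of white blood cells. The threshold fell between genes of nearly equal values. Rab34 and AW112010 were just inside it, with a larger adjusted p of 0.0470 and 0.0483, and the complement gene C1qc and the lipid carrier gene Apoe were just outside, with 0.0503 and 0.0513.

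The opposite calls depended on single libraries and on the run term. They were 0 of the 10 genes in a fit with no run term, and also without Wnt7acre replicate 2, Wnt7acre replicate 3, ePRAoe replicate 2, ePRAoe replicate 3, ePRBoe replicate 1 or ePRBoe replicate 2. They were 3 without ePRBoe replicate 3 and 6 without Wnt7acre replicate 1 or ePRAoe replicate 1. The sign of every called difference of the 10 genes was the same in all the fits that were run. Lancl3, Styk1, Alpl and Enpp4 did not have opposite calls. Against Wnt7acre, Lancl3 was called in ePRBoe and not in ePRAoe, and Styk1, Alpl and Enpp4 were called in ePRAoe and not in ePRBoe. With no run term the differences of ePRAoe were the same, while those of ePRBoe from Wnt7acre were smaller in the 6 genes with opposite calls. They were then 0.61 for Selplg, 0.78 for Gngt2, 0.74 for AW112010, 0.53 for Galns, 0.43 for Rab34 and -0.30 for March6, against 1.15, 1.22, 1.17, 0.94, 0.77 and -0.65 with it. That of Alpl went from 0.36 to 0.92.

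**Figure D1:**
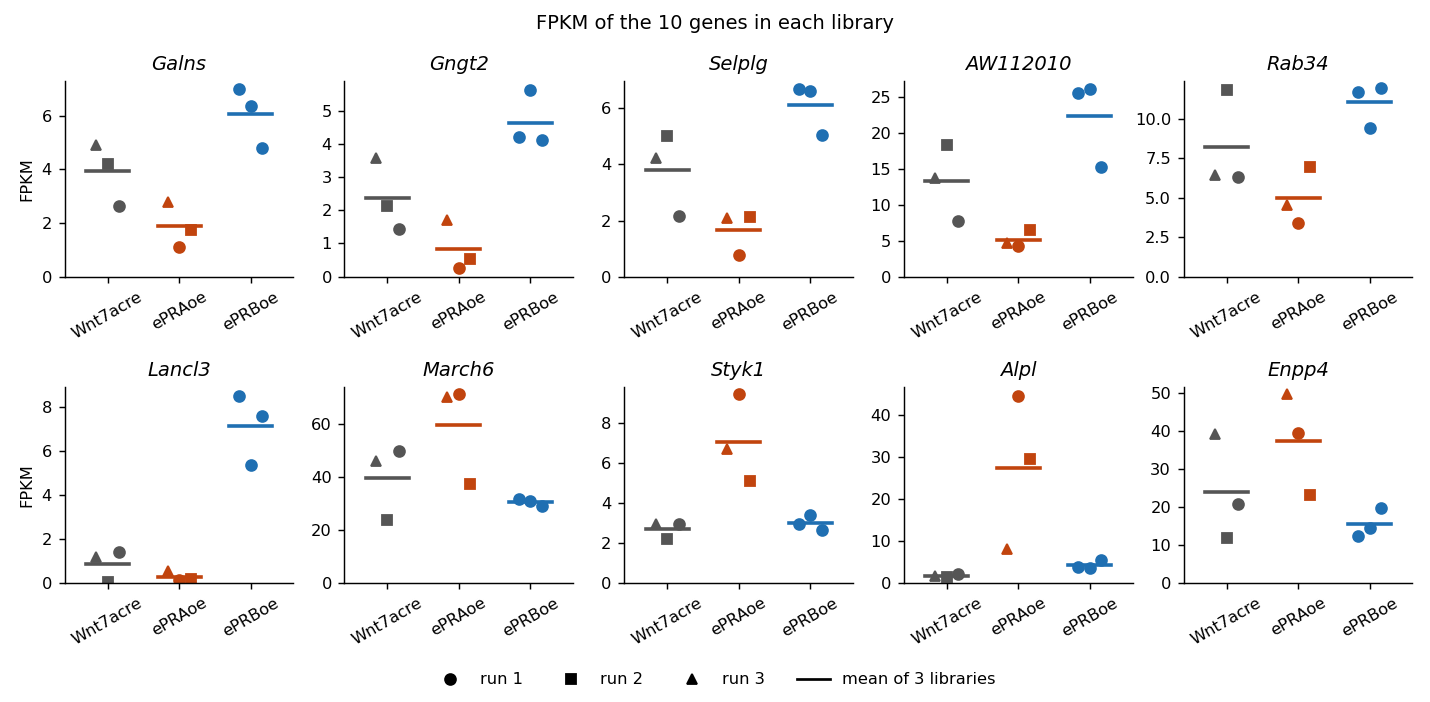
FPKM (vertical axes, from 0) of each of the 10 genes in the 9 libraries, by genotype; the symbol gives the sequencing run and the horizontal line the mean of 3 libraries. In the first 6 panels the ePRBoe libraries lie above the ePRAoe libraries, and in the last 4 below them.

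In total 4 of the 10 genes were called higher in ePRAoe than in Wnt7acre, against 7.2% of all genes, and 5 lower, against 8.98%. In ePRBoe against Wnt7acre 6 were called higher, against 6.41%, and 1 lower, against 2.48%. In ePRBoe against ePRAoe, where 39 genes (0.316%) were called higher and 1 (0.0081%) lower, 6 of the 10 were higher and March6 was the lower gene. Either way, 0.324% of all genes were called between ePRBoe and ePRAoe. In each of the 10 genes the ePRAoe and ePRBoe libraries did not overlap, as in 22.6% of all genes. Against Wnt7acre 4 of the 10 had no overlap in ePRAoe (28.9% of all genes) and 4 in ePRBoe (39.8%). The choice of the genes fixes these counts. The 9 calls in ePRAoe were 2 without Wnt7acre replicate 2 or ePRAoe replicate 3 and 4 without Wnt7acre replicate 3 or ePRAoe replicate 2. The 7 calls in ePRBoe against Wnt7acre were 0 without ePRAoe replicate 2, 1 without Wnt7acre replicate 3, ePRBoe replicate 1 or ePRBoe replicate 2, and 4 without Wnt7acre replicate 2, ePRAoe replicate 3 or ePRBoe replicate 3. The 7 calls between ePRBoe and ePRAoe were 0 without Wnt7acre replicate 3, ePRAoe replicate 2, ePRBoe replicate 1 or ePRBoe replicate 2, 4 without Wnt7acre replicate 2, ePRAoe replicate 3 or ePRBoe replicate 3, and 10 without Wnt7acre replicate 1 or ePRAoe replicate 1. The comparisons share the Wnt7acre libraries, so a high or low control value moves both differences of a gene.

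Selplg (chr5:113818536-113832644, reverse strand, mm10) encodes P-selectin glycoprotein ligand 1, with which white blood cells roll on vessel walls. Its level was 4.23, 5.02 and 2.16 FPKM in Wnt7acre, 2.10, 0.788 and 2.13 FPKM in ePRAoe and 6.68, 6.63 and 5.05 FPKM in ePRBoe. All ePRAoe libraries were below the controls and all ePRBoe libraries above them, the nearest pairs being 2.13 and 2.16 FPKM and 5.02 and 5.05 FPKM. The means were 3.80 ± 1.48, 1.67 ± 0.767 and 6.12 ± 0.927 FPKM (SD, n = 3). The fitted differences from Wnt7acre were -0.84 (SE 0.17) in ePRAoe and 1.15 (SE 0.21) in ePRBoe, on the log2(FPKM + 1) scale used for all differences below.

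Gngt2 (chr11:95837216-95845734, forward strand) encodes a gamma subunit of G proteins, known from cone photoreceptors and also found in white blood cells. It stood at 3.58, 2.15 and 1.43 FPKM in Wnt7acre, 1.70, 0.268 and 0.537 FPKM in ePRAoe and 4.20, 5.64 and 4.11 FPKM in ePRBoe. The ePRBoe libraries lay above all others, and the highest ePRAoe library overlapped the lowest control. The differences were -0.91 (SE 0.18) and 1.22 (SE 0.22). Gngt2 overlaps Abi3 on the other strand, and whether the counting used strand is not given in the sources used here. Abi3 itself stayed between 0 and 0.858 FPKM and was not tested.

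AW112010 (chr19:11047612-11055808, reverse strand) is annotated as a long intergenic noncoding RNA and is known as a transcript that immune cells make on interferon or bacterial stimulation. It stood at 13.7, 18.2 and 7.75 FPKM in Wnt7acre, 4.71, 4.22 and 6.47 FPKM in ePRAoe and 25.6, 26.1 and 15.2 FPKM in ePRBoe. The ePRAoe libraries were all below the controls, and ePRBoe replicate 3 fell inside the range of the controls. The differences were -1.16 (SE 0.24) and 1.17 (SE 0.29). Without Wnt7acre replicate 3 they were -1.37 and 0.75.

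Galns (chr8:122578242-122611463, reverse strand) encodes a lysosomal sulfatase that takes sulfate groups off keratan sulfate and chondroitin sulfate. Its level was 4.91, 4.20 and 2.65 FPKM in Wnt7acre, 2.79, 1.09 and 1.74 FPKM in ePRAoe and 6.99, 6.35 and 4.79 FPKM in ePRBoe. The highest ePRAoe library stood above the lowest control, and the lowest ePRBoe library below the highest control. The differences were -0.79 (SE 0.18) and 0.94 (SE 0.22).

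In these 4 genes, and in Rab34 and Lancl3, the order of the mean levels was ePRBoe, Wnt7acre, ePRAoe. Selplg was the one of the 6 in which no neighbouring groups overlapped. The genes most like them were sought among 8225 genes that averaged 5 FPKM or more, as the smallest mean absolute difference between centred log2(FPKM + 1) values over the 9 libraries. They were Ptprc (0.13), the CD45 antigen of all white blood cells, and Fcer1g (0.13) for Galns, and Klrd1 (0.15), a receptor of natural killer cells, and the complement gene C1qb (0.16) for Gngt2. For Selplg they were Klrd1 (0.15) and Fxyd5 (0.17), and for AW112010 the cytokine receptor gene Il2rg (0.16) and Fxyd5 (0.25). Galns and Selplg were themselves 0.16 apart, which made them the nearest pair among the 10 genes.

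**Figure D2:**
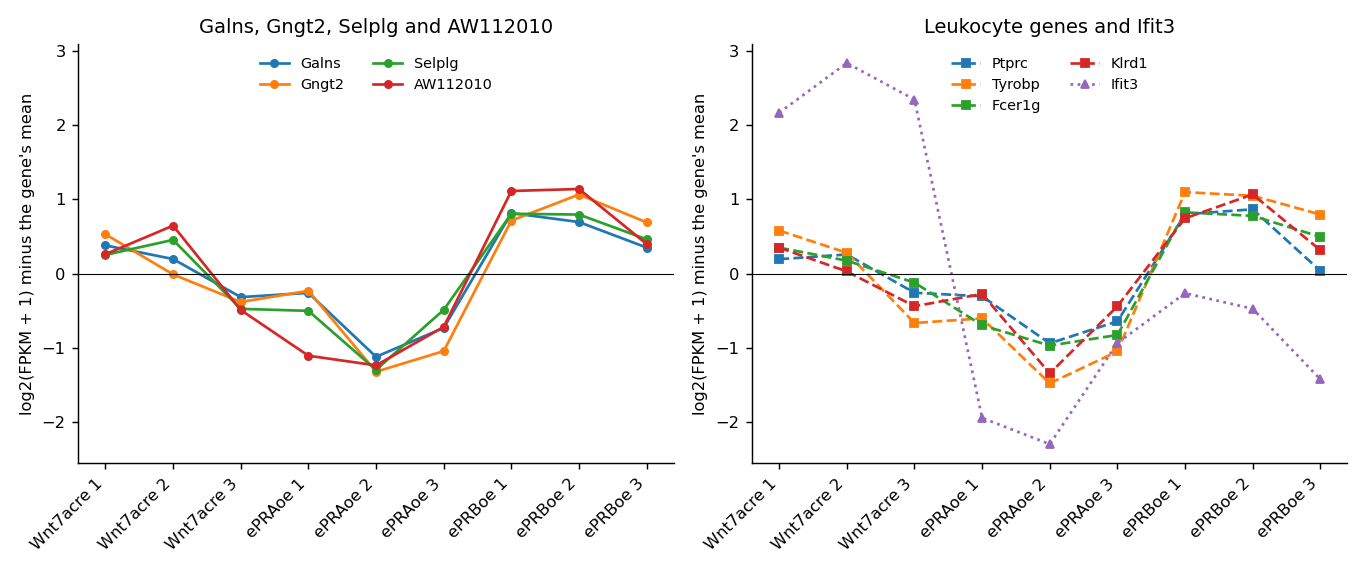
log2(FPKM + 1) minus the gene's own mean (vertical axes) in each library, for Galns, Gngt2, Selplg and AW112010 on the left, and for the white blood cell genes Ptprc, Tyrobp, Fcer1g and Klrd1 and the interferon-induced gene Ifit3 on the right. The 4 genes on the left and the 4 white blood cell genes are lowest in ePRAoe replicate 2 and highest in an ePRBoe library, while Ifit3 is highest in the 3 Wnt7acre libraries. The 4 white blood cell genes are nearest patterns or opposite calls of these same libraries, so their likeness to the left panel follows from that choice.

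Some markers of white blood cells, and of other cell types, moved beside these 4 genes. The summed level of 10 pan-leukocyte markers was 122 to 216 FPKM in Wnt7acre, 111 to 121 FPKM in ePRAoe and 313 to 370 FPKM in ePRBoe. Of these markers 0 rose and 2 fell in ePRAoe against Wnt7acre (median difference -0.53, against -0.03 for all genes), and 4 rose and 0 fell in ePRBoe (median 1.12, against 0.10). Without Wnt7acre replicate 3 none of the 10 rose in ePRBoe, 2 rose without ePRBoe replicate 2, and 6 without Wnt7acre replicate 1 or ePRAoe replicate 1. With no run term 1 of the pan-leukocyte markers fell in ePRAoe. Laptm5, another of these markers, differed by 0.17 in ePRAoe (limma adjusted p = 0.528) and rose by 1.15 (SE 0.20, limma adjusted p = 0.0169) in ePRBoe. Tyrobp fell by 1.11 (SE 0.15, limma adjusted p = 0.00447) in ePRAoe and rose by 1.50 (SE 0.18, adjusted p = 0.00648) in ePRBoe, where the adjusted p was 0.074 without Wnt7acre replicate 3. With no run term Tyrobp was called in neither comparison, with a limma adjusted p of 0.0523 in ePRAoe and of 0.0877 in ePRBoe, where its difference was 0.92. Fcer1g fell by 0.97 (SE 0.13, limma adjusted p = 0.00483) in ePRAoe. In ePRBoe Fcer1g rose by 0.76 (SE 0.16, limma adjusted p = 0.0307). That call was lost on leaving out ePRAoe replicate 2 (adjusted p = 0.0757), ePRBoe replicate 1 (0.0964), ePRBoe replicate 2 (0.104) or Wnt7acre replicate 3 (0.231). Tyrobp and Fcer1g have opposite calls themselves, so they are no independent evidence. They were the 2 pan-leukocyte markers that fell in ePRAoe and were among the 4 that rose in ePRBoe. The sum and medians of that list also hold them. Tyrobp alone stood at 71.4, 57.9 and 29.6 FPKM in Wnt7acre and at 30.9, 16.4 and 22.4 FPKM in ePRAoe. Fcer1g stood at 40.4, 35.7 and 28.9 FPKM and at 19.1, 15.6 and 17.3 FPKM. The lower sum in ePRAoe is thus no independent evidence either.

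Macrophage and natural killer cell markers differed in part. Of 9 tested macrophage markers 1 rose and 2 fell in ePRAoe (median -0.77) and 2 rose in ePRBoe (median 0.76), and their sum was 114 to 311 FPKM in Wnt7acre, 114 to 181 FPKM in ePRAoe and 232 to 266 FPKM in ePRBoe. The marker that rose in ePRAoe was Cd14, by 0.63 (SE 0.13, limma adjusted p = 0.0165), and it rose by 0.80 (SE 0.16, limma adjusted p = 0.0226) in ePRBoe. In ePRAoe 0 rose and 1 fell without replicate 2 or 3 of Wnt7acre or of ePRAoe. None rose in ePRBoe without Wnt7acre replicate 3, ePRAoe replicate 2, ePRBoe replicate 1 or ePRBoe replicate 2, 1 rose without ePRBoe replicate 3, and 4 rose without Wnt7acre replicate 1 or ePRAoe replicate 1. With no run term 0 of the macrophage markers rose and 1 fell in ePRAoe, and 0 rose in ePRBoe. Of 10 tested natural killer and T cell markers 1 rose in ePRAoe (median -0.24) and 5 rose in ePRBoe (median 1.28), with sums of 20.2 to 38.0 FPKM, 21.7 to 39.7 FPKM and 60.8 to 95.5 FPKM. The count of 5 was 3 with no run term, 2 without Wnt7acre replicate 3, and 3 without ePRAoe replicate 2, ePRBoe replicate 1 or ePRBoe replicate 2. Gzmb, a granule protease of these cells, rose in both, by 1.77 (SE 0.18, limma adjusted p = 0.00210) and 2.43 (SE 0.22, limma adjusted p = 0.00303). Of the defining markers Cd3e and Cd4 were at 0 in at least 1 library, as were S100a8, S100a9 and Cxcr2 of neutrophils and Cd79b of B cells. Wnt7acre replicate 1 stood apart in its neutrophil markers, which summed to 67.3 FPKM there and to between 1.15 and 3.93 FPKM in the other 8 libraries, and it had the highest macrophage sum. Endothelium markers summed to 12.9 to 20.3 FPKM in Wnt7acre, 15.3 to 32.7 FPKM in ePRAoe and 48.7 to 70.6 FPKM in ePRBoe, and of 7 tested 0 were called in ePRAoe, 0 of them at an unadjusted p under 0.05, and 2 rose in ePRBoe. Of these endothelium markers 0 rose without Wnt7acre replicate 3 or ePRAoe replicate 2, and 1 without ePRBoe replicate 1 or ePRBoe replicate 2. Gland markers summed to 19.4 to 47.8 FPKM in Wnt7acre, 4.30 to 15.7 FPKM in ePRAoe and 12.1 to 73.4 FPKM in ePRBoe, and of 4 tested 1 rose and 1 fell in ePRAoe and 0 were called in ePRBoe (1 at an unadjusted p under 0.05). The part of these cells in the levels of Selplg, Gngt2, AW112010 and Galns was not tested. In such bulk captures fewer cells of a type and less RNA per cell cannot be told apart.

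The relatives and partners of these genes were called in varying numbers. Of 12 tested selectins and enzymes that build the selectin ligand, 3 rose in ePRAoe (median 0.42) and 3 rose in ePRBoe (median 0.48). Leaving out Wnt7acre replicate 2 or ePRAoe replicate 3 left 1 in ePRAoe, and leaving out Wnt7acre replicate 3 left 0 in ePRBoe, and with no run term 1 of these selectins and enzymes that build the selectin ligand rose in ePRAoe. Chst2, a sulfotransferase of that pathway, rose by 1.25 (SE 0.19, limma adjusted p = 0.00605) in ePRAoe and by 1.93 (SE 0.23, limma adjusted p = 0.00608) in ePRBoe, where it missed the threshold at 0.0505 without Wnt7acre replicate 3. Of 10 tested G protein beta and gamma subunits, 1 fell in ePRAoe (median 0.20) and 1 rose in ePRBoe (median 0.26). The first call disappeared when Wnt7acre replicate 3 or ePRAoe replicate 2 was left out, and the other when ePRAoe replicate 2 or any ePRBoe library was. Of 17 tested genes of lysosomal glycosaminoglycan breakdown, 1 rose and 2 fell in ePRAoe (median -0.27), and 1 fell in ePRBoe (median 0.18). Neu1, the lysosomal sialidase, fell by 0.94 (SE 0.12, limma adjusted p = 0.00404) in ePRAoe and differed by -0.19 in ePRBoe (limma adjusted p = 0.475). Without Wnt7acre replicate 1 or ePRAoe replicate 1, 6 of the 17 fell in ePRAoe, and without replicate 2 or 3 of either group 0 rose. In ePRBoe 0 fell without Wnt7acre replicate 3 or ePRAoe replicate 2. Of 20 interferon-induced genes, 8 fell in ePRAoe (median -1.50) and 4 in ePRBoe (median -0.97), so AW112010 and this list went the same way in ePRAoe and opposite ways in ePRBoe. The count of 8 was 14 without ePRBoe replicate 3, 5 without Wnt7acre replicate 2 or ePRAoe replicate 3 and 4 without Wnt7acre replicate 3 or ePRAoe replicate 2. That of 4 in ePRBoe was 0 without Wnt7acre replicate 3 and 1 without ePRAoe replicate 2, ePRBoe replicate 2 or ePRBoe replicate 3, and 7 of the interferon-induced genes fell there with no run term.

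Promoter letters were read for AW112010 because it shares its order with immune genes, and for Alpl because it showed the widest difference and has more than one start. The sequence is the 250 bases before the start of transcription in RefSeq (GRCm38.p6, the mm10 assembly), 5′ to 3′ along the gene's strand, at chr19:11050567-11050816 for AW112010, and at chr4:137766476-137766725 and chr4:137796385-137796634 for the inner and the outer start of Alpl. The AW112010 window lies inside the annotated gene, whose outer end on the reverse strand is at 11055808. No window before that end was read. Capitals mark matches to the motifs searched.

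AW112010: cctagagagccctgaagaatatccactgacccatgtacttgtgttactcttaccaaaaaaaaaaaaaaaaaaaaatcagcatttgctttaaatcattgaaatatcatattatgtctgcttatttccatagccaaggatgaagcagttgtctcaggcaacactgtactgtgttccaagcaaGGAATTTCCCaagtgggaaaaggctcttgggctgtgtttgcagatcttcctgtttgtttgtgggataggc

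Alpl, inner start: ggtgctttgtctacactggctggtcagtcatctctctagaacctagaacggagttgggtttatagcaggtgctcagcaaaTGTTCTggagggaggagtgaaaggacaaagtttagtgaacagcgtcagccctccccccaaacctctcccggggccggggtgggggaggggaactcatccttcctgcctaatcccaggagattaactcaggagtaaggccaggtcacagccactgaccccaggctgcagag

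Alpl, outer start: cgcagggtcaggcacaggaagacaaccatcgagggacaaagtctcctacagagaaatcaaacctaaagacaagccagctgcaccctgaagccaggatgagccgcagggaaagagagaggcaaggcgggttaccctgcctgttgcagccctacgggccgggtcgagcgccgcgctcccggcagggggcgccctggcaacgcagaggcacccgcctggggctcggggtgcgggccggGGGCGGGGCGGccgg

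Of the 10 genes 6 had an entry in the promoter table, with 8 starts in all. Motifs were searched on both strands in these 8 windows and in all 32851 windows of the same length. AW112010 holds the NF-kappa-B element, searched as GGGA and TTCC with 2 bases between, as do 1.21% of all windows. That match is on the opposite strand, 70 bases before the start. The inner start of Alpl holds AGAACA, the core that the progesterone receptor recognizes, on the opposite strand 170 bases before the start, as do 16.1% of all windows. No other of the 8 windows holds that core, and none holds the receptor's palindrome, GNACA and TGTNC with 3 bases between (0.387% of all windows), the interferon response core, GAAA and GAAA with 2 bases between (2.98%), or the PU.1 element GAGGAAGT (2.44%). The GC box GGGCGG is in 4 of the 8 windows, the outer start of Alpl among them, and in 32.7% of all. The AW112010 window had 39.2% G and C and 0 CpG, and that of March6 80.0% and 49, where the median of all windows was 52.4% and 6. A match is a description of letters and shows no binding.

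Rab34 (chr11:78188430-78192193, forward strand) encodes a small GTPase of the Golgi that positions lysosomes and helps to build the membrane of primary cilia. Its level was 6.44, 11.8 and 6.32 FPKM in Wnt7acre, 4.55, 3.37 and 6.95 FPKM in ePRAoe and 11.7, 9.43 and 12.0 FPKM in ePRBoe. Each overexpressing group overlapped the controls, and Wnt7acre replicate 2 stood well above the other controls. The differences were -0.62 (SE 0.15) and 0.77 (SE 0.19). Its nearest genes were Bin1 (0.16), a membrane-bending protein, and Adam15 (0.18), a surface protease. Of 17 tested partners and ciliogenesis genes 2 fell in ePRAoe (median -0.13) and 1 in ePRBoe (median 0.09). In ePRAoe 1 fell without Wnt7acre replicate 3, ePRAoe replicate 2 or any ePRBoe library. Rab11a, a GTPase of recycling endosomes, fell by 1.32 (SE 0.15, limma adjusted p = 0.00304) in ePRAoe and by 1.15 (SE 0.19, limma adjusted p = 0.0135) in ePRBoe. In ePRBoe its adjusted p went to 0.0516, 0.0548 or 0.124 on leaving out ePRBoe replicate 2, ePRAoe replicate 2 or Wnt7acre replicate 3.

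Lancl3 (chrX:9199902-9268085, forward strand) belongs to the LanC-like proteins, of which better known members join glutathione to damaged proteins. Its level was 1.16, 0.039 and 1.40 FPKM in Wnt7acre, 0.543, 0.116 and 0.155 FPKM in ePRAoe and 8.47, 5.37 and 7.60 FPKM in ePRBoe. All ePRBoe libraries were above all 6 others, while ePRAoe and Wnt7acre overlapped. The difference was 2.06 (SE 0.34) in ePRBoe, and of the fits run the call was lost without ePRAoe replicate 2 (limma adjusted p = 0.0523) and with a pseudocount of 0.1 (0.0502). In ePRAoe it was -0.48 (SE 0.28), and -0.96 (SE 0.64) with a pseudocount of 0.1, and was not called in either fit. All ePRAoe values were below 1 FPKM, where the scale understates differences, so the missing call does not show an unchanged level. Outside ePRBoe only Wnt7acre replicates 1 and 3 reached 1 FPKM, so Lancl3 could be tested only because of its level in ePRBoe. Its nearest gene, the fatty acid desaturase Fads2, was 0.37 away, farther than the nearest gene of every other of the 10. The relatives Lancl1 and Lancl2 differed by -0.08 and 0.33 in ePRAoe and by 0.65 and 0.13 in ePRBoe, and limma called neither (0 and 1 of them at an unadjusted p under 0.05).

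March6 (chr15:31455891-31531053, reverse strand) encodes a ubiquitin ligase in the membrane of the endoplasmic reticulum that marks sterol enzymes and misfolded proteins for breakdown. It had the highest mean of the 10 genes, 43.3 FPKM over the 9 libraries. Its level was 45.9, 23.5 and 49.8 FPKM in Wnt7acre, 70.0, 71.5 and 37.3 FPKM in ePRAoe and 31.7, 31.0 and 29.2 FPKM in ePRBoe. The 3 ePRBoe libraries were close together and all below the ePRAoe libraries, yet they lay inside the wide range of the controls, as did ePRAoe replicate 3. The differences were 0.59 (SE 0.11) and -0.65 (SE 0.14), so March6 was the one gene of the 6 with opposite calls that was higher in ePRAoe. Its nearest genes were Mfap1b (0.17), a splicing factor, and Agap1 (0.22), a regulator of membrane traffic.

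Of 21 tested genes of protein disposal from the endoplasmic reticulum, limma called 0 in ePRAoe and 0 in ePRBoe (medians -0.13 and 0.01). At an unadjusted p under 0.05 they were 3 and 1. Of 5 tested relatives in the membrane RING-CH ligase family 1 fell in ePRAoe, and in ePRBoe limma called 0 and 2 had an unadjusted p under 0.05 (medians -0.11 and 0.09). The gene that fell was March2, by 1.09 (SE 0.22, limma adjusted p = 0.0164), with an adjusted p between 0.0901 and 0.0948 without Wnt7acre replicate 2 or 3 or ePRAoe replicate 2 or 3. With median-of-ratios factors the medians in ePRBoe turned to -0.13 for protein disposal, -0.05 for the ligases and -0.06 for the ciliogenesis list.

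**Figure D3:**
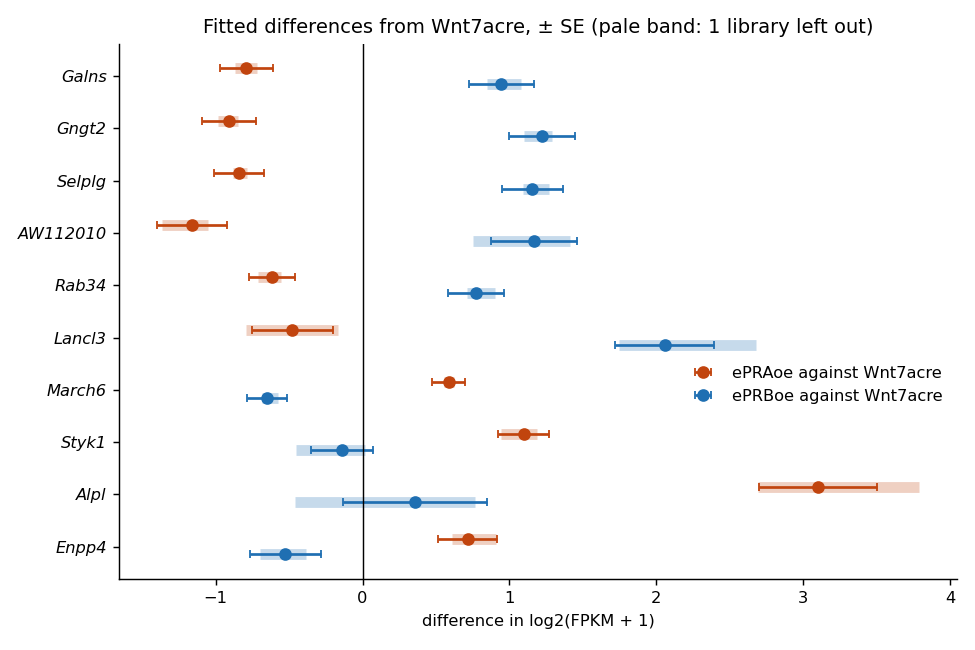
Fitted difference in log2(FPKM + 1) from Wnt7acre (horizontal axis) of each gene, with its standard error, for ePRAoe and ePRBoe; the pale band spans the fits that leave out 1 library. The bands of Styk1 and Alpl in ePRBoe cross 0, and those of the differences that were called do not.

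Styk1 (chr6:131299142-131353597, reverse strand) encodes a membrane protein with a kinase-like domain that has been tied to growth signalling and, through Beclin 1, to autophagy. Its level was 2.97, 2.21 and 2.93 FPKM in Wnt7acre, 6.71, 9.45 and 5.09 FPKM in ePRAoe and 2.95, 3.38 and 2.63 FPKM in ePRBoe. The ePRAoe libraries stood above all 6 others, and ePRBoe and Wnt7acre overlapped. The difference was 1.10 (SE 0.17) in ePRAoe, called in each of the 9 fits that left out a library, and -0.14 (SE 0.21) in ePRBoe, with no steady sign: it was the same in 15 of 18 fits. Its nearest genes were Kctd13 (0.17), an adaptor for ubiquitin ligases, and Golph3 (0.18), a Golgi protein. Of 9 tested genes of the Beclin 1 lipid kinase complex 1 rose and 2 fell in ePRAoe, and 1 rose and 2 fell in ePRBoe (medians -0.11 and 0.05). The autophagy genes Rubcn and Atg14 fell by 1.29 (SE 0.18, limma adjusted p = 0.00484) and by 0.92 (SE 0.14, limma adjusted p = 0.00575) in ePRAoe. Both also fell in ePRBoe, by 1.10 (SE 0.22, limma adjusted p = 0.0250) and by 0.79 (SE 0.17, limma adjusted p = 0.0285). In ePRBoe none of the 9 was called without Wnt7acre replicate 3, ePRAoe replicate 2 or any of the ePRBoe libraries. In ePRAoe Becn1 itself rose by 1.06 (SE 0.21, limma adjusted p = 0.0155), with an adjusted p of up to 0.0855, above 0.05 each time, without Wnt7acre replicate 2 or 3 or ePRAoe replicate 2 or 3.

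Alpl (chr4:137741733-137796384, reverse strand) encodes tissue-nonspecific alkaline phosphatase, a surface enzyme that splits pyrophosphate and phosphate esters and that is used as a mark of decidualizing stroma. Its level was 1.72, 1.41 and 2.01 FPKM in Wnt7acre, 8.00, 44.4 and 29.6 FPKM in ePRAoe and 3.64, 3.42 and 5.53 FPKM in ePRBoe. The groups did not overlap anywhere, in the order ePRAoe, ePRBoe, Wnt7acre. All ePRBoe libraries thus lay above the controls, which goes against describing Alpl as a gene that the isoforms move in opposite directions. The difference was 3.10 (SE 0.40) in ePRAoe, called in each of the 9 fits that left out a library, and 0.36 (SE 0.49) in ePRBoe, not called, where it turned to -0.46 without Wnt7acre replicate 3. ePRBoe was lower than ePRAoe by a fitted -2.74 (SE 0.49), which was not called either. The means were 1.71 ± 0.297, 27.3 ± 18.3 and 4.20 ± 1.16 FPKM (SD, n = 3), so the ePRAoe libraries differed widely among themselves. The nearest genes were Ptgs2 (0.36), the prostaglandin synthase, and the immediate early gene Fos (0.50).

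Stroma markers were higher in the same libraries. Their summed level over 18 genes was 124 to 161 FPKM in Wnt7acre, 283 to 455 FPKM in ePRAoe and 484 to 636 FPKM in ePRBoe, and 11 and 14 of the 18 rose in ePRAoe and ePRBoe (medians 1.20 and 1.88). The stroma sum was highest in ePRBoe and Alpl highest in ePRAoe. Within ePRAoe, replicate 3 had the highest stroma sum (455 FPKM) and replicate 2 the highest Alpl, while replicate 1 was lowest in both (283 and 8.00 FPKM). Replicate 3 was highest in both within Wnt7acre (161 and 2.01 FPKM) and within ePRBoe (636 and 5.53 FPKM). The part of stromal cells in the level of Alpl was not tested.

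Enpp4 (chr17:44096308-44105809, reverse strand) encodes a surface enzyme that splits dinucleotides such as diadenosine triphosphate. Its level was 39.3, 11.8 and 20.9 FPKM in Wnt7acre, 49.7, 39.6 and 23.2 FPKM in ePRAoe and 12.3, 14.4 and 19.6 FPKM in ePRBoe. Both groups overlapped the controls, and the ePRBoe libraries were all below the ePRAoe libraries. The differences were 0.71 (SE 0.20) and -0.53 (SE 0.24), the latter not called. The call in ePRAoe was kept in 3 of the 9 fits that left out a library. It was also lost with no filter on low values, quantile normalization, no run term or no variance trend. March6 was among its nearest genes (0.29). Of 17 tested ectonucleotidases and genes of extracellular purine handling 3 rose and 4 fell in ePRAoe (median -0.31), and 2 rose and 1 fell in ePRBoe (median 0.31). With a library left out the ePRAoe counts were 1 to 2 rising and 2 to 6 falling, with 6 without Wnt7acre replicate 1 or ePRAoe replicate 1 and 2 without Wnt7acre replicate 2 or 3 or ePRAoe replicate 2 or 3. With no run term 1 rose and 3 fell in ePRAoe. In ePRBoe 1 rose and 0 fell without Wnt7acre replicate 3 or ePRAoe replicate 2, and 1 rose and 1 fell without any single ePRBoe library. Entpd5, a nucleotidase of the secretory pathway, fell in ePRAoe by 1.42 (SE 0.21, limma adjusted p = 0.00542), and Ank, which exports pyrophosphate and ATP, rose by 2.35 (SE 0.26, limma adjusted p = 0.00265). Both were called the same way in ePRBoe, with -1.50 (SE 0.25, limma adjusted p = 0.0139) for Entpd5 and 1.53 (SE 0.32, limma adjusted p = 0.0289) for Ank. These calls in ePRBoe were lost without Wnt7acre replicate 3 or ePRAoe replicate 2. That of Ank was also lost without any single ePRBoe library (limma adjusted p of 0.0654 to 0.0812). The nucleoside transporter gene Slc29a1 rose in ePRBoe by 1.86 (SE 0.19, limma adjusted p = 0.00445). In ePRAoe Slc29a1 rose by 0.62 (SE 0.16, limma adjusted p = 0.0345), a call lost in each of the 9 fits that left out a library.

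**Figure D4:**
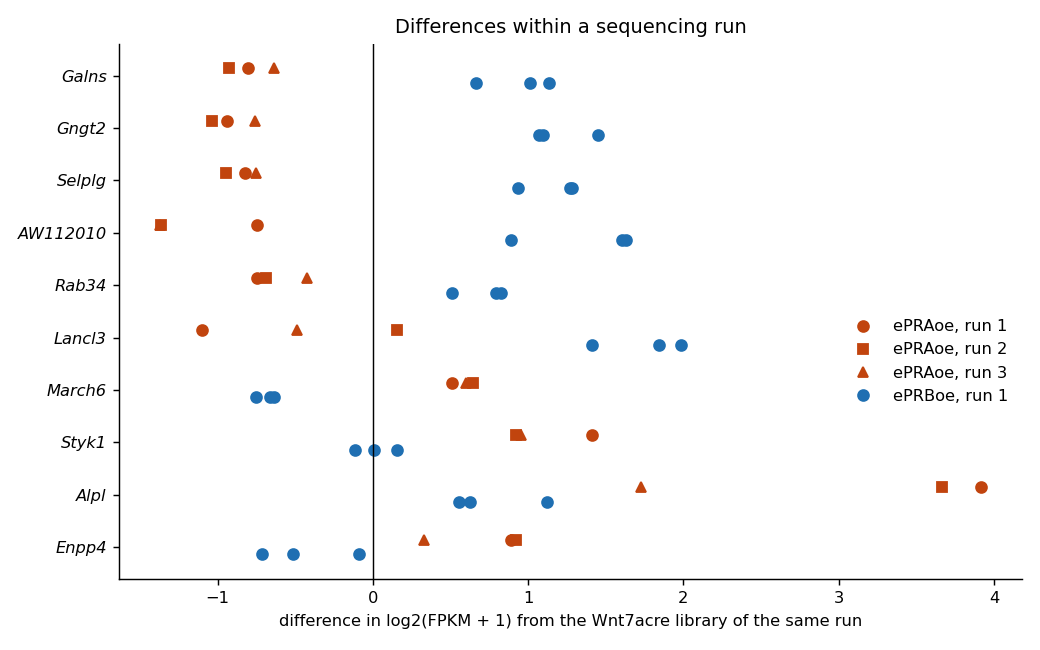
Difference in log2(FPKM + 1) (horizontal axis) of each overexpressing library from the Wnt7acre library of its own sequencing run, with 3 runs for ePRAoe and run 1 for the 3 ePRBoe libraries. In 9 of the 10 genes the 3 ePRAoe points lie on 1 side of 0, and in Lancl3 they straddle it.

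Within the runs, Galns, Gngt2, Selplg, AW112010 and Rab34 were lower in the ePRAoe library than in its Wnt7acre partner in 3 of 3 runs, and March6, Styk1, Alpl and Enpp4 were higher in 3 of 3. The within-run differences of Selplg were -0.82, -0.94 and -0.75, those of Gngt2 -0.94, -1.03 and -0.76, and those of March6 0.51, 0.64 and 0.60. These genes have opposite calls in the fit with a run term, which favours a small spread within runs, so their closeness follows in part from that choice. Those of Alpl were 3.92, 3.66 and 1.72. Those of Lancl3 were -1.10, 0.15 and -0.49. In run 1 the 3 ePRBoe libraries were above Wnt7acre replicate 3 by a mean of 1.16 in Selplg, 1.21 in Gngt2, 1.37 in AW112010, 0.94 in Galns, 0.71 in Rab34, 1.75 in Lancl3 and 0.77 in Alpl. March6 was lower by a mean of -0.68 and Enpp4 by -0.44, each in 3 of 3 ePRBoe libraries. Styk1 stood at 0.02 on average, with ePRBoe libraries on both sides of the control. There is 1 control in run 1, so these values carry no test.

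The genes next to the 10 on the chromosome were looked at after the values had been seen. Of 18 tested neighbours, 4 rose and 4 fell in ePRAoe, against 7.2% and 8.98% of all genes. In ePRBoe 4 rose and 1 fell, against 6.41% and 2.48%. None of the 18 was called in opposite directions, as were 0.0648% of all genes, so that count tells nothing particular about neighbours. In ePRAoe 1 rose and 1 fell without replicate 2 or 3 of Wnt7acre or of ePRAoe, and 2 rose and 2 fell with no run term. Leaving out an ePRBoe library left 1 to 2 rising and 2 to 3 falling there. In ePRBoe 0 fell without Wnt7acre replicate 3, ePRAoe replicate 2, ePRBoe replicate 2 or ePRBoe replicate 3, 2 rose without ePRAoe replicate 2 or ePRBoe replicate 2, and 3 fell without Wnt7acre replicate 1 or ePRAoe replicate 1. Between ePRBoe and ePRAoe 1 neighbour rose and 0 fell, against 0.316% and 0.0081% of all genes. That gene was Tmem119, 18020 bases from Selplg, with 1.39 (SE 0.19, limma adjusted p = 0.0375). Tmem119 rose by 0.61 (SE 0.15, limma adjusted p = 0.0332) in ePRAoe, where Selplg was lower, and by 2.00 (SE 0.19, limma adjusted p = 0.00317) in ePRBoe. Of the 9 fits that left out a library, 2 kept its call in ePRAoe and 4 that between ePRBoe and ePRAoe. Ms4a8a, a membrane protein gene 11663 bases from AW112010, rose by 2.28 (SE 0.37, limma adjusted p = 0.00798) in ePRAoe and by 5.19 (SE 0.46, limma adjusted p = 0.00300) in ePRBoe, where AW112010 had differences of -1.16 and 1.17. Xk, 4671 bases from Lancl3, rose by 1.38 (SE 0.23, limma adjusted p = 0.0136) in ePRBoe. Its adjusted p there went to 0.0516, 0.0523 or 0.143 on leaving out ePRBoe replicate 2, ePRAoe replicate 2 or Wnt7acre replicate 3. In ePRAoe it differed by 0.64 (limma adjusted p = 0.0556). Enpp5, a relative of Enpp4 that lies 9741 bases from it, stood at 18.1, 7.06 and 13.1 FPKM in Wnt7acre, 22.8, 26.2 and 16.0 FPKM in ePRAoe and 17.8, 23.1 and 27.5 FPKM in ePRBoe. The mean of Enpp5 was thus higher than in Wnt7acre in both overexpressing groups, while that of Enpp4 was 24.0 FPKM in Wnt7acre, 37.5 FPKM in ePRAoe and 15.4 FPKM in ePRBoe, with overlap in each comparison with the controls.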

How the data were processed

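RNA-seq of laser-captured uterine luminal epithelium was analysed from 9 libraries, 3 per genotype. The authors' deposited table holds FPKM values for 15158 gene symbols. Per the submitters' processing notes, the build was mm10 and the tools STAR (version 2.5.2b), featureCounts (1.5.0-p1), edgeR (3.28.0) and limma (3.42.2). Not given in the sources used here are the annotation, the strand setting, the gene lengths and the depth of the libraries, so no counting interval is printed.

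Values were transformed as log2(FPKM + 1), which understates differences of low genes. All 9 libraries entered 1 limma fit (version 3.58.1, R 4.3.3), with terms for genotype and sequencing run (from the labels) and a variance trend, with 4 residual and 3.64 prior degrees of freedom. Tests were two-sided, adjusted by Benjamini-Hochberg over 12347 genes, those that reached 1 FPKM in 3 or more libraries; 2811 were not tested. The fit was tried on simulated data whose noise within runs was set below the spread within the real genotypes. That check does not show how reliable the calls are in these libraries. Since no animals are named, p-values reflect only how far these samples spread, which may be technical.

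The 10 genes and the gene lists were chosen with earlier results of these data known. There were 19 lists, without the 10 genes themselves. Beside the 10 genes, the text names called genes of each list with large moderated t or high mean, the 2 nearest patterns of each gene and the genes at the edge of the opposite calls. One gene under this rule is not reported here. Positions are from GENCODE M21 (mm10). Some of the 10 stand out of alphabetical order in the table (Styk1 between Caml and Camsap2), and rows were taken by symbol. The alternatives tried were other pseudocounts, filters, scalings, covariates and variance settings, and leaving out each library.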

Additional observations from a re-analysis of the deposited data

How the results depend on the processing

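The sign of every called difference of the 10 genes was kept in all fits, but the calls were not. The 6 genes with opposite calls became 3 with no filter on low values, 1 with a mean of at least 5 FPKM (5 of the 10 genes tested), 3 with median-of-ratios factors, 2 with quantile normalization, 3 as TPM and 0 with no run term. Leaving out 1 library gave 0 to 6. Genes called in ePRBoe against ePRAoe, 40 at first, were 19 with no filter, 22 with median-of-ratios factors, 15 with quantile normalization and 7 with no run term, and 0 to 576 with 1 library left out. Genes called in ePRBoe against Wnt7acre, 1098 at first, were 653 with a mean of at least 5 FPKM, where fewer genes were tested, and 1786 with no run term, and 231 to 1604 with 1 library left out. For ePRAoe against Wnt7acre, 1998 at first, leaving out 1 library gave 723 to 2705. Genes of the lists called in ePRBoe against ePRAoe went from 8 to 5 with quantile normalization and 1 with no run term, and from 0 to 28 with 1 library left out. Those called in the comparisons with Wnt7acre went from 54 to between 33 and 64 for ePRAoe, and from 45 to between 14 and 55 for ePRBoe. A library of run 2 or 3 left out leaves its partner alone in that run, so the fit in effect loses both. Where no such construction shows it, the cause was not tested. The uncalled differences of Styk1 and Alpl in ePRBoe changed sign in some fits.

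Deviations of same-numbered libraries from their genotype means correlated at -0.23 to 0.17. Those of the Wnt7acre and ePRAoe libraries of the same run correlated at 0.03, 0.18 and 0.17 in runs 1, 2 and 3. The run 3 pair is also the pair of replicate 1. Neither the replicate numbers nor the runs thus showed a strong pairing of the samples. With a replicate block in place of the run, 0 of the 10 genes had opposite calls, 1113 genes were called in ePRAoe against Wnt7acre and 4 in ePRBoe against ePRAoe, and 1 gene of the lists was called in the latter.

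FPKM without counts gives no precision for low genes such as Gngt2 and Lancl3, and 3 libraries per genotype with 1 control in the run of ePRBoe limit every comparison with it.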
